A study of Homo sapiens with 8 samples.

Results

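Untreated Nalm6 and untreated SUPB15 cells were compared for the places on the genome where ATF4 was found without any drug. Both are cell lines grown from acute lymphoblastic leukaemia (ALL) of the B-cell lineage, and SUPB15 carries the Philadelphia chromosome, the BCR-ABL1 fusion. Each line had 2 untreated libraries and 2 libraries from cells given L-asparaginase (1 IU/ml for 2 h), and the 4 untreated peak lists of the 8 lists were compared. Both lines were kept in RPMI-1640 medium with serum and glutamine, and the untreated cells received no agent, per the labels. Chromatin was cross-linked and sonicated, and 5 ug of an antibody against ATF4 was used for each immunoprecipitation. Peaks of the 4 untreated lists that shared at least 1 bp were merged, which gave 46615 regions, where merging the peaks of all 8 lists gave 132657 regions. Each line is 1 established culture line, so a difference between them is a difference between 2 lines and not between kinds of leukaemia. The design text calls the Nalm6 experiments independent. No label says whether the SUPB15 libraries came from separate cultures, so their spread may be technical. Line and any batch of preparation cannot be told apart.

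ATF4 is a basic leucine zipper transcription factor and the main effector of the integrated stress response. When amino acids run short or proteins misfold, kinases phosphorylate the initiation factor eIF2, most translation slows, and the ATF4 messenger is translated more. ATF4 binds DNA as a dimer, often with C/EBP proteins, and drives genes of amino acid synthesis and uptake, among them the asparagine synthetase gene, whose product makes the amino acid that L-asparaginase destroys. Lymphoblasts that make little asparagine depend on outside supply, and this is the basis for use of the enzyme in ALL. Sites bound without the drug are the basal state from which such a response starts. Positions below are in the hg19 build. They are given without genes, since a gene annotation for hg19 was not used here.

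Untreated Nalm6 had more listed ATF4 peaks than untreated SUPB15. The 2 Nalm6 lists held 34825 and 36801 peaks, and the 2 SUPB15 lists held 9575 and 9586. The means were 35813 ± 1397 (SD, n = 2) and 9580.5 ± 7.78 (SD, n = 2), a ratio of geometric means of 3.74. Both Nalm6 lists were longer than both SUPB15 lists (exact two-sided permutation test on log2 counts, p = 0.33, the smallest that 2 against 2 libraries allow). The gap was wider among strong peaks: with a −log10 q of at least 10, which measures how far a peak stands above its local background after adjustment for the number of positions tested, 15259 and 16786 peaks of Nalm6 and 2518 and 1892 peaks of SUPB15 were left, a ratio of 7.33.

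The background of the libraries ran the other way. The genome background, the number of fragments that the peak caller sets for a position with no local excess and that grows with the number and length of fragments, was 2.97 and 2.79 in the Nalm6 libraries. It was 4.08 and 3.90 in the SUPB15 libraries. At positions of that background, the lowest listed summits (fragments plus 1) were 3.70 and 4.30 times the background in Nalm6, and 3.68 and 3.59 times in SUPB15. The line with fewer peaks thus had the higher background, and at such positions a summit of like relative height was enough for listing in both lines. Peaks of Nalm6 were taller and wider. The median fold enrichment, the deposited ratio of the summit to its local background, was 4.46 and 4.55 for Nalm6 against 3.75 and 3.72 for SUPB15, and the median width was 485 and 493 bp against 302 and 277 bp. The highest fold enrichments differed less, at 24.7 and 25.3 for Nalm6 against 21.0 and 22.3 for SUPB15.

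Most sites listed in both SUPB15 libraries were also listed in Nalm6, and few of those of Nalm6 were listed in SUPB15. Of the 46615 regions, 20370 (43.7%) were listed in both Nalm6 libraries and in neither SUPB15 library, and are called Nalm6-only. The opposite class, SUPB15-only, held 870 regions (1.87%). A peak of every list was found in 3980 regions. Both Nalm6 lists and 1 SUPB15 list met in 3492 regions, both SUPB15 lists and 1 Nalm6 list in 186, and 277 had 1 list of each line. A single list of Nalm6 accounted for 12758 regions and a single list of SUPB15 for 4682. Of the 5036 regions in both SUPB15 lists, 79.0% (95% Wilson interval 77.9 to 80.1) were in both Nalm6 lists. Of the 27842 regions in both Nalm6 lists, 14.3% (13.9 to 14.7) were in both SUPB15 lists. These intervals, like all below, cover counting error over regions only. Pairs made of 1 library of each line had 28 to 127 regions to themselves, fewer than either pair of one line. A region outside a list is one with no listed peak there, not one with a measured level of 0. Without SUPB15 replicate 1 or replicate 2 the SUPB15-only class grew to 3656 and 2798 regions, and without SUPB15 replicate 2 the class shared by every list grew to 6088.

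The unequal lengths of the lists bear on all these classes, so each list was also shortened to its 9575 peaks of lowest p. This kept the Nalm6 peaks with a −log10 p of at least 19.5 and 21.1, whereas SUPB15 peaks stayed down to 4.46 and 4.51. Of the 18820 regions that remained, 3254 (17.3%) were Nalm6-only, 1635 (8.69%) SUPB15-only and 3018 in every list, and mixed pairs had 108 to 160 regions to themselves. The ratio of Nalm6-only to SUPB15-only regions was 1.99, compared with 23.4 in the full lists. Of the regions in both shortened SUPB15 lists, 60.4% (59.0 to 61.7) were in both of Nalm6, and 37.3% (36.2 to 38.3) held the other way. Both shares count the same 3018 regions, over 4999 regions in both SUPB15 lists and 8100 in both Nalm6 lists. They differ only through these totals. Fewer peaks recurred between the SUPB15 replicates (51.8 to 52.0%) than between those of Nalm6 (84.8%). The ratio of 1.99 also rests on classes that ask for a peak in both lists of a line. Both classes kept members at equal length. Shortening took almost nothing from the SUPB15 lists, so weaker peaks were removed almost only on the Nalm6 side. Of the 1635 SUPB15-only regions, 573 (35.0%) had a lower-ranked peak in both full Nalm6 lists, 192 (11.7%) in 1 of them and 870 (53.2%) in neither. Without SUPB15 replicate 1 the order at equal length turned, with 4376 Nalm6-only and 4979 SUPB15-only regions, and without SUPB15 replicate 2 it turned likewise, with 3962 and 4502. In both cases a SUPB15-only region needed 1 SUPB15 list and a Nalm6-only region both Nalm6 lists.

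The lines were compared with the agreement of their own replicates by keeping the same number of strongest peaks in every list. Among the 500 strongest peaks, 89.0% of those of a Nalm6 library overlapped a peak of the other Nalm6 library and 85.0 to 85.2% did so within SUPB15, while 46.4 to 48.0% did so between the lines. With 2000 peaks these shares were 81.5%, 81.6 to 81.7% and 43.5 to 47.1%. Up to that number the replicates of the lines agreed about equally well, and lists of different lines had fewer partners than lists of 1 line. With 5000 peaks the agreement within SUPB15 was 62.8 to 62.9% and with 9575 it was 51.8 to 52.0%, close to the 41.9 to 49.5% between the lines, whereas Nalm6 stayed at 84.8%. The weaker part of the SUPB15 lists therefore recurred less between its own replicates, and classes that ask for a peak in both SUPB15 lists leave most of it out.

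**Figure D1:**
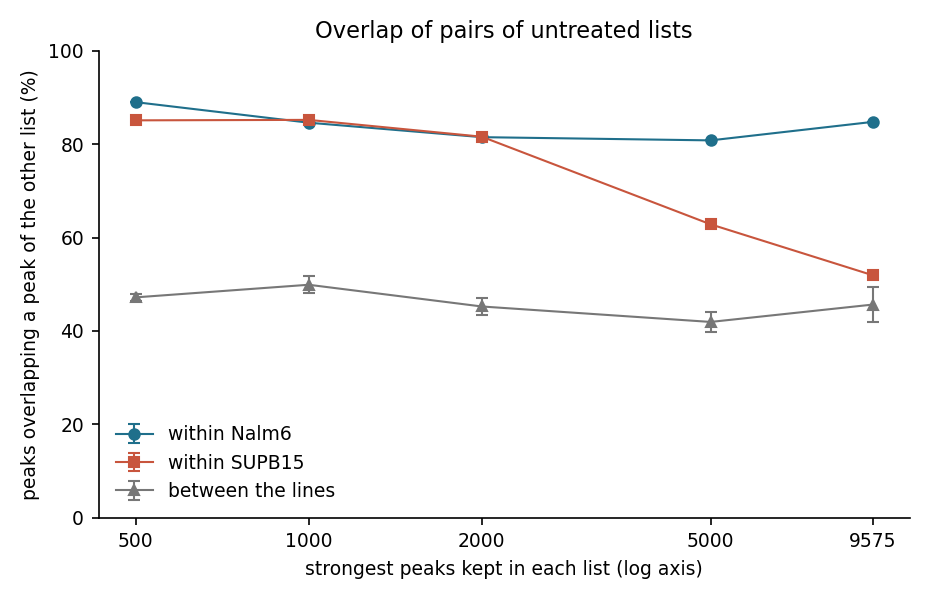
Share of peaks (vertical axis, percent) that overlap a peak of another list by at least 1 bp when the same number of strongest peaks is kept in each (horizontal axis, log scale); points are the middle and bars the range over pairs and directions. Between-line overlap lies below both within-line overlaps at every number, with 46.4 to 48.0% at 500 peaks and 41.9 to 49.5% at 9575.

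Strong peaks were shared more often than weak ones in both lines. Each list was split into 10 parts of equal size by p. The strongest decile of each Nalm6 list had a peak in both SUPB15 lists at 54.1% and 54.0% of its peaks, and in neither at 26.4% and 27.0%. In the weakest decile of these lists 0.98% and 0.76% were in both SUPB15 lists. The strongest decile of each SUPB15 list was in both Nalm6 lists at 93.4% and 90.8%, and the weakest decile still at 49.6% and 45.1%. Recurrence in the replicate fell alongside, from 100% to 47.1% and 37.6% within Nalm6, and from 99.9% and 100% to 21.5% and 20.6% in SUPB15. The weakest SUPB15 peaks thus met a peak in both of the longer Nalm6 lists more often than a peak in the other SUPB15 list.

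**Figure D2:**
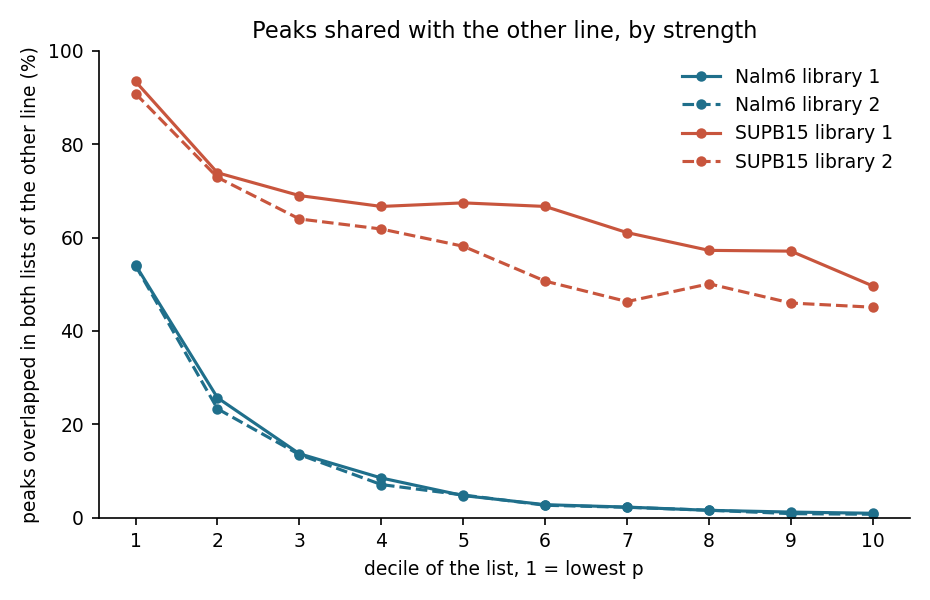
Share of the peaks of each list (vertical axis, percent) that overlap a peak in both lists of the other line, by deciles of the list ranked by p (horizontal axis, 1 = lowest p); each line is 1 library. The SUPB15 libraries start at 93.4% and 90.8% and end at 49.6% and 45.1%, and the Nalm6 libraries start at 54.1% and 54.0% and end below 1%.

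The Nalm6-only class held strong sites as well as weak ones. The lower fold enrichment of both Nalm6 libraries had a median of 4.21 over the 20370 regions, and 169 reached 10. Over the 870 SUPB15-only regions the median of the lower SUPB15 fold was 3.90, and 7 reached 10. At the 3980 regions in every list it was 6.97 in Nalm6 and 3.91 in SUPB15, with 731 and 245 regions at 10 or above. Median widths were 650, 363 and 960 bp, and merging more lists itself widens a region. These strengths describe the classes and are not a test.

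The 10 Nalm6-only regions with the highest lower fold were chosen by rank. The first, chr17:19015114-19015572, had fold enrichments of 21.8 and 21.6, with 125 and 124 fragments at its summit. Another region nearby, chr17:18966736-18967316, had 18.9 and 20.4. No SUPB15 list held either of them, with or without asparaginase. The second in rank, chr7:97501139-97502026, had folds of 19.2 and 20.5 over a local background that was itself 4.32 and 4.80 times the genome background. Its summits of 265 and 294 fragments were 89.5 and 106 times the genome background. Neither untreated SUPB15 list held a peak there, and the SUPB15 asparaginase lists held weak ones with folds of 4.05 and 3.86.

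The other regions of this rank also had high folds in both Nalm6 libraries, which follows from the choice by the lower fold. At chr19:966486-967207 the folds were 20.4 and 19.1, and at chr15:40615444-40616292 they were 16.9 and 17.2, with summits of 273 and 258 fragments. At chr3:123711831-123712901 they were 16.0 and 17.2, and at chr11:64794662-64795578 they were 16.9 and 15.8. At chr10:99320707-99321466 they were 15.7 and 16.7. The replicates of Nalm6 differed by less than 2 fold units at each of these. At chr3:50358424-50359465 the folds were 15.6 and 16.8, and no SUPB15 list of either treatment held a peak. At chr19:13933129-13933826 they were 15.5 and 17.1, and this region had the highest folds of these 10 in the SUPB15 asparaginase lists, 7.89 and 6.42. Of the 10 regions, 6 were in both SUPB15 asparaginase lists, 1 in a single one and 3 in neither. Summits were 25.2 to 106 times the genome background. The lowest listed peaks of untreated SUPB15 at genome background were 3.68 and 3.59 times that background. At these 10 regions the local background in Nalm6 was up to 5.12 times the genome background. The height that listing in SUPB15 needed there is therefore not known. The same first 5 regions led the class in the shortened lists.

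The 10 strongest SUPB15-only regions were lower. The first, chr1:567393-567768, had folds of 15.2 and 14.2 and summits of 90 and 92 fragments, and no Nalm6 list of either treatment held it. At chr5:32531653-32532205 the SUPB15 folds were 12.9 and 12.1, and the Nalm6 asparaginase lists gave 7.48 and 11.3. At chr9:21096196-21096894 they were 12.3 and 12.1, with no Nalm6 peak under either treatment. At chr3:65698543-65699133 they were 13.4 and 11.3 without the drug and 21.1 and 20.8 in the SUPB15 asparaginase lists. At chr7:24818329-24818990 untreated SUPB15 had 10.4 and 12.2, and at chr4:15522953-15523404 it had 10.8 and 10.3. At both of these the Nalm6 asparaginase lists held peaks of like fold, 11.2 and 10.15 at the first and 11.3 and 12.1 at the second. These 2 regions are thus SUPB15-only among the untreated lists and shared among the asparaginase lists.

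Of the remaining 4 regions, chr4:131822273-131822844 had untreated folds of 13.0 and 10.0. Its folds in the SUPB15 asparaginase lists were 24.1 and 25.3. At chr5:4374844-4375443 the untreated folds were 9.85 and 9.71 and no Nalm6 list held a peak. The region chr21:9699421-9699781, with 9.59 and 9.86, was also in no Nalm6 list, and at 9.18 and 7.77 it was the only one of these 10 with a lower fold in both SUPB15 asparaginase lists than in both untreated ones. At chr2:105274864-105275418 the untreated folds were 9.38 and 9.73. In all, 6 of the 10 were in both Nalm6 asparaginase lists and 4 in neither, and summits were 12.6 to 29.6 times the genome background.

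**Figure D3:**
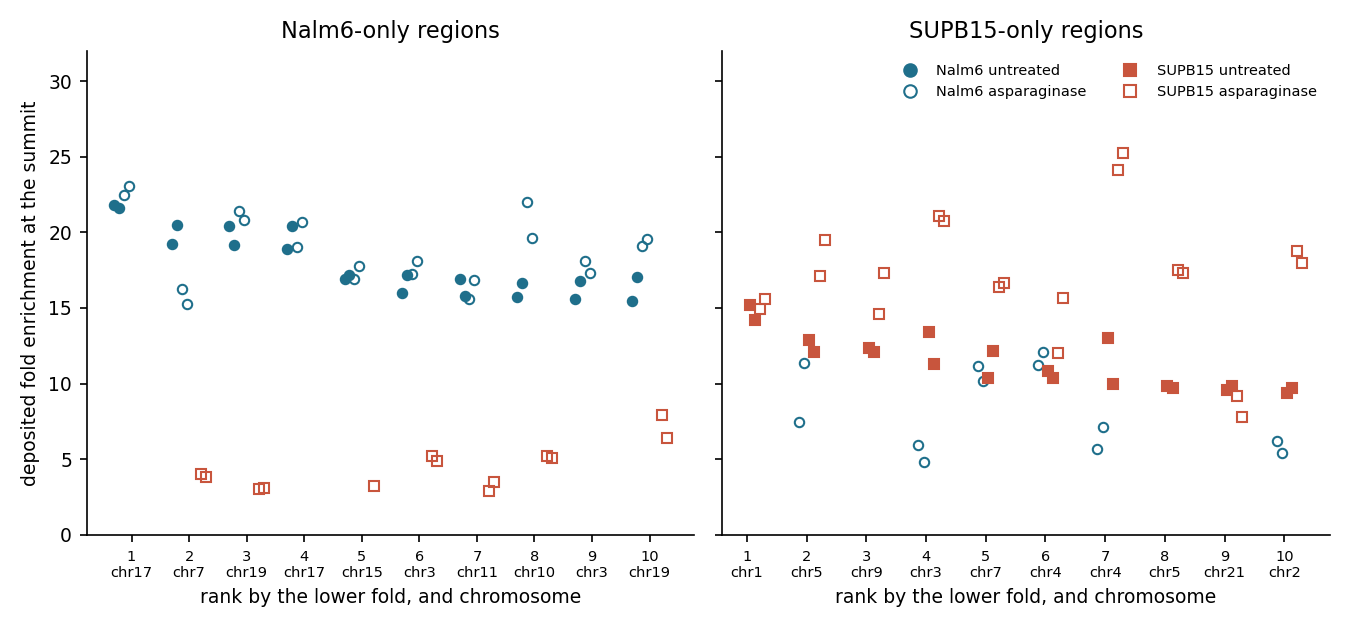
Deposited fold enrichment at the summit (vertical axis) at the 10 strongest Nalm6-only regions (left) and the 10 strongest SUPB15-only regions (right), ordered by the lower fold of both libraries of the line; circles are Nalm6, squares SUPB15, filled untreated and open asparaginase, with no mark where a list holds no peak. Untreated Nalm6 values lie between 15.5 and 21.8 on the left, and untreated SUPB15 values between 9.38 and 15.2 on the right.

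With shortened lists the leading SUPB15-only regions were partly others, because weak Nalm6 peaks then no longer counted. The first was chrX:136520262-136520718 with SUPB15 folds of 16.7 and 18.4, where only Nalm6 replicate 2 held a peak, of fold 5.28. At chrX:108297382-108297967 the SUPB15 folds were 15.9 and 21.6 and the Nalm6 folds 6.55 and 6.07, so both lines were listed with a large difference in fold. At chr16:33293711-33294514 they were 14.6 and 13.2 against 4.03 and 5.01. At chr11:78070896-78071406 SUPB15 had 12.8 and 13.3, and Nalm6 replicate 2 alone had a peak, of 3.48. The fifth region of this set was chr1:567393-567768.

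The 10 strongest regions common to the lines were ranked by the lowest of their 4 folds, which favours regions with like folds, and 5 of them were broad. At chr11:46264183-46265334 the Nalm6 folds were 16.2 and 16.1 and the SUPB15 folds 16.3 and 17.97, with summits of 365, 382, 320 and 288 fragments. At chrX:54665304-54666467 the Nalm6 folds were 16.8 and 17.1 and the SUPB15 folds 18.7 and 19.0. At chrX:24072334-24073281 they were 16.3 and 16.1 against 20.02 and 18.1. At chrX:22703990-22704895 all 4 lay between 15.97 and 16.05, and at chr20:20446853-20447814 between 15.7 and 16.2. The same fold does not mean the same height. At chr20:20446853-20447814 the local background was 5.92 and 7.02 times the genome background in Nalm6 and 3.17 and 2.89 times in SUPB15, and the summits were 101 and 118 times the genome background in Nalm6 and 53.7 and 51.0 times in SUPB15.

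The other 5 of these 10 regions were narrower, 379 to 521 bp wide, and 3 of them lay on chromosome Y. At chrY:58827160-58827538 the Nalm6 folds were 20.6 and 20.6 and the SUPB15 folds 19.9 and 20.8. At chr8:43831394-43831775 they were 24.7 and 25.3 against 18.9 and 19.4, and at chr17:22261395-22261779 they were 22.1 and 22.7 against 17.5 and 16.3. The regions chrY:58862540-58863060 and chrY:58855890-58856271 had lowest folds of 16.6 and 15.6. At the 3 on chromosome Y the local background equalled the genome background in every untreated library. Peaks were not filtered for repeated sequence, and whether these narrow regions are ATF4 sites was not tested.

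Summits of shared regions lay near each other in both lines. The median distance between the summits of the 3980 regions was 32 bp between the Nalm6 libraries, 45 bp between the SUPB15 libraries and 50 to 56 bp between the lines. Summits were within 50 bp of each other at 64.3%, 52.8% and 46.9 to 50.2% of regions. Summits of different lines were thus a little farther apart than those of replicates.

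At the 3980 shared regions, summit heights were set against the genome background of their library, as the summit's fragments plus 1 divided by that background. Median heights were 20.5 and 23.3 for the Nalm6 libraries, and for SUPB15 they were 8.58 and 7.69. Nalm6 had the higher mean at 3660 regions (92.0%), with a median difference of 1.35 on the log2 scale, or 2.55-fold. With the deposited fold enrichment, which divides by the local background, the median difference was 0.67, and at regions with a −log10 q of at least 10 in every list the difference in height was 0.87. Replicates ranked the regions alike, with a Spearman correlation of 0.948 between the Nalm6 libraries and 0.886 between the SUPB15 libraries, while libraries of different lines gave 0.392 to 0.446. These correlations run over regions, which share libraries and are not replicates. The SD of the replicate differences was 0.240 in Nalm6 and 0.287 in SUPB15 on the log2 scale.

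After the median difference had been taken out, single regions still differed between the lines in both directions. In the fit across all 3980 regions, 916 (23.0%) were relatively higher in Nalm6 and 1161 (29.2%) relatively higher in SUPB15 (limma with Benjamini-Hochberg adjustment, adjusted p under 0.05; 2278 at an unadjusted p under 0.05). Differences of more than 1 on the log2 scale were found at 185 regions for Nalm6 and 595 for SUPB15, together 19.6% of the 3980. All of these were called, and the smallest called difference was 0.40. Each region had to be listed in SUPB15, whose median heights of 8.58 and 7.69 lay near its lowest listed heights of 3.68 and 3.59. Large differences towards Nalm6 can be left out by this, and its part in the counts of each direction was not tested. Without centring, 3247 regions were higher in Nalm6 and 134 in SUPB15, so 96.0% of calls were in the Nalm6 direction, compared with 44.1% when centred. In height that was not centred SUPB15 had the higher mean at 320 regions, so most of the 1161 regions called relatively higher in SUPB15 were still taller in Nalm6. The fit took its spread from all regions together as a trend with mean height, with an infinite prior weight. The p-values thus rest on 2 libraries a line and a spread set by mean height, not by the single region. Calls higher in Nalm6 fell to 574 without Nalm6 replicate 1 and to 608 without replicate 2.

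**Figure D4:**
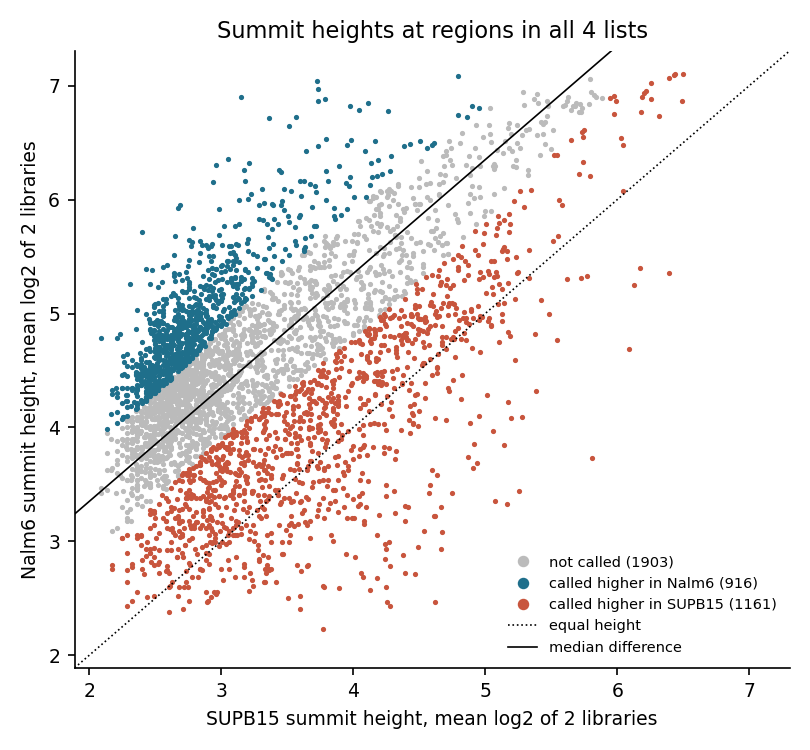
Mean log2 summit height over the genome background in Nalm6 (vertical axis) and SUPB15 (horizontal axis) at the 3980 regions in every untreated list, with calls by limma in colour; the dotted line marks equal height and the solid line the median difference of 1.35. Most regions lie above the dotted line, and 916 and 1161 regions lie far enough above and below the solid line to be called.

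The 5 called regions with the largest differences towards SUPB15 were higher there also without centring. At chr9:121946037-121946871 the Nalm6 heights were 6.06 and 5.02 and the SUPB15 heights 29.9 and 20.3, a centred log2 difference (Nalm6 minus SUPB15) of -3.51 (SE 0.20, adjusted p 2.13e-61, limma). At chr6:150284576-150285349 they were 10.4 and 16.9 against 57.3 and 54.9, a difference of -3.43 (SE 0.26). At chr1:244387730-244388191 they were 5.05 and 5.74 against 21.8 and 17.2, with -3.20. Both SUPB15 libraries lay above both Nalm6 libraries at each of them, as the choice by size of difference favours. At chr6:28831131-28831807 the heights were 9.09 and 11.1 against 40.9 and 31.5, and at chr8:75005594-75006166 they were 9.42 and 12.5 against 39.4 and 37.2.

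The regions with the largest differences towards Nalm6 were tall in Nalm6 and low in SUPB15. At chr1:45195920-45197194 the Nalm6 heights were 115 and 124 and the SUPB15 heights 10.5 and 7.44, a centred log2 difference of 2.40 (SE 0.25, adjusted p 6.68e-20, limma). A neighbour on the same chromosome, chr1:45186740-45187980, had 126 and 139 against 21.3 and 8.21, and here the SUPB15 libraries differed from each other by more than 2-fold. At chr12:7052713-7054018 they were 97.9 and 113 against 10.5 and 10.0, with a difference of 2.01. At chr2:122287788-122289115 they were 79.4 and 78.5 against 10.3 and 5.90, and at chr1:182360106-182361564 they were 49.5 and 55.9 against 5.15 and 5.39. The heights of the lines did not overlap at any of these 10 regions. They were chosen for the largest differences, so this follows from the choice and is not a separate result.

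A large share of the SUPB15-only regions lay on chromosome 8, beyond 60 Mb. Chromosome 8 held 177 of the 870 SUPB15-only regions (20.3%), compared with 3.34% of the Nalm6-only regions and 5.80% of the regions in every list. From 60 Mb to the end of this chromosome lay 168 of them (19.3%), and from 180 Mb to the end of chromosome 1 another 56 (6.44%). Both segments, chosen because their SUPB15 background stood out, held 224 SUPB15-only regions or 25.7% (23.0 to 28.8), 3.84% (3.58 to 4.11) of the Nalm6-only regions and 7.81% (7.02 to 8.69) of those in every list. With shortened lists the shares were 18.7% (16.8 to 20.6) of the SUPB15-only and 2.52% (2.03 to 3.12) of the Nalm6-only regions. Since the segments were chosen from these same lists, the shares and their intervals are a description and not a test. Peaks of the segment on chromosome 8 made up 8.27% of SUPB15 replicate 1 and 13.98% of replicate 2, so this share differed between the replicates, against 2.13% of each Nalm6 list.

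The local background by which these segments were chosen is given as a description. At the shared regions on chromosome 8 from 60 Mb, the local background was 2.58 and 2.44 times the genome background in SUPB15, and from 180 Mb on chromosome 1 it was 2.29 and 2.19 times. At the 3669 shared regions elsewhere it was 1.64 and 1.56 times. In Nalm6 it was 2.45 and 2.60 on that part of chromosome 8 and 2.65 and 2.80 on that part of chromosome 1, compared with 2.47 and 2.67 elsewhere. The summit heights of the 159 shared regions on chromosome 8 from 60 Mb leaned towards SUPB15, with a median centred log2 difference (Nalm6 minus SUPB15) of -0.52. The median log2 difference in local background was -0.15 there and 0.63 over all shared regions. At the 152 shared regions on chromosome 1 from 180 Mb the lean in height was smaller, -0.17, and the difference in local background was 0.36. Heights are not divided by the local background, so these leans are not independent of how the segments were chosen. On the whole of chromosome 8, 109 of 231 shared regions (47.2%) were called relatively higher in SUPB15 and 21 (9.09%) relatively higher in Nalm6. The part of the higher local background of these segments in the region classes was not tested. With chromosomes 1 and 8 left out, 17782 regions were Nalm6-only and 600 SUPB15-only.

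Chromosome 19 held 6.22% of the Nalm6-only regions, 2.07% of the SUPB15-only regions and 3.44% of those in every list, and with shortened lists 7.93% and 2.45% of the first 2 classes. On chromosome 17 the shares were 6.30%, 2.18% and 4.67%, and on chromosome 22 they were 3.11%, 1.03% and 1.51%. Chromosome Y held 20 SUPB15-only regions (2.30%) and 27 Nalm6-only regions (0.13%). It also had the lowest median centred height difference of any chromosome, -1.22 over 14 shared regions. Of these, 12 (85.7%) were called relatively higher in SUPB15 and 1 in Nalm6. Whether repeated sequence had a part in these chromosome Y values was not tested. The relative heights of shared regions gave a different order from the classes: on chromosomes 16, 19 and 22 the median centred difference was -0.34, -0.31 and -0.35, towards SUPB15, although these chromosomes held larger shares of the Nalm6-only than of the SUPB15-only class. On chromosomes 4 and 12 it was 0.20 and 0.20, towards Nalm6.

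**Figure D5:**
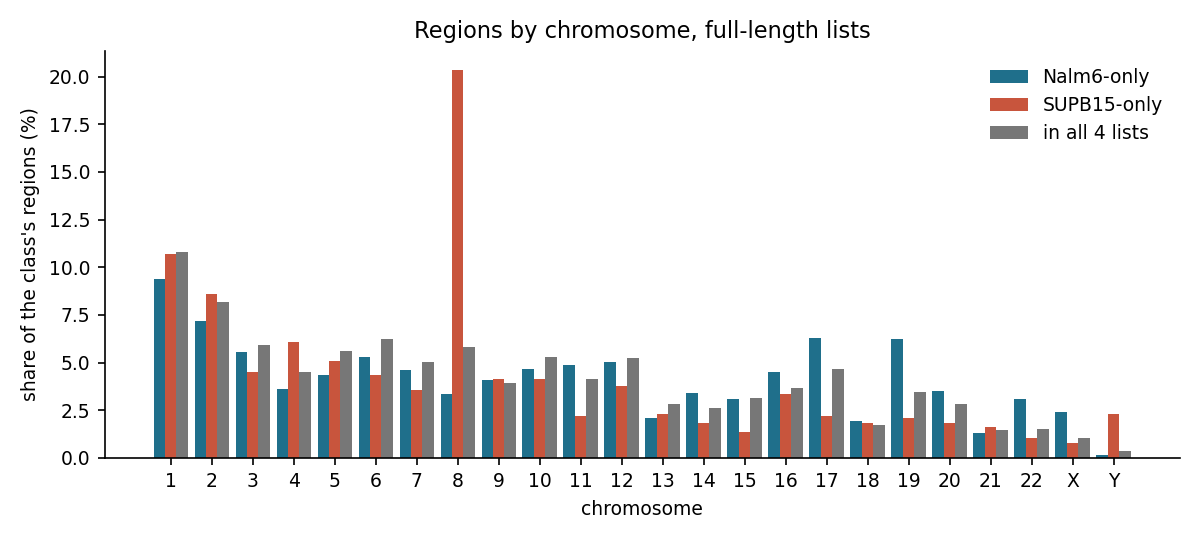
Share of each class's regions on each chromosome (vertical axis, percent) for the Nalm6-only, SUPB15-only and all-list classes of the full lists. The SUPB15-only class has 20.3% of its regions on chromosome 8, where the other classes have 3.34% and 5.80%, and the Nalm6-only class has 6.30% and 6.22% on chromosomes 17 and 19.

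Part of the regions of 1 line were listed in the asparaginase lists of the other line, a readout that the classes did not use. Most regions of the full-length classes were in neither of those lists. Of the 20370 Nalm6-only regions, 3886 or 19.1% (18.5 to 19.6) were in both SUPB15 asparaginase lists, 23.3% in 1 of them and 57.6% in neither. Over all 46615 regions, shared ones included, 30.2% were in both SUPB15 asparaginase lists, and over the 12758 regions of a single Nalm6 list 5.89% (5.50 to 6.32) were. Their own line held 88.3% of them again in both asparaginase lists. Of the 870 SUPB15-only regions, 254 or 29.2% (26.3 to 32.3) were in both Nalm6 asparaginase lists, 8.97% in 1 and 61.8% in neither, and 91.3% were in both SUPB15 asparaginase lists. Over all regions 65.9% were in both Nalm6 asparaginase lists, and over the 4682 regions of a single SUPB15 list 9.33% (8.53 to 10.2) were. Most of all regions were listed in untreated Nalm6 itself, so the 65.9% is no baseline for the SUPB15-only class. Among the regions of the shortened lists the shares found in both asparaginase lists of the other line were 40.5% (38.9 to 42.2) of the 3254 Nalm6-only and 58.1% (55.7 to 60.5) of the 1635 SUPB15-only regions, although 573 of the latter already had peaks in both full untreated Nalm6 lists. The asparaginase lists are not of the same length in Nalm6 and SUPB15, so the shares of the 2 classes cannot be set against each other. Nor were they shortened to the length of the untreated lists, and all 8 lists merged to 132657 regions against 46615 from the 4 untreated ones. A longer list can hold a region that a shorter one misses, so these shares do not measure binding gained with the drug.

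The share found again was lower among the weakest regions of both classes. In the Nalm6-only decile of highest fold 40.9% (38.8 to 43.1) of 2037 regions were in both SUPB15 asparaginase lists, in the second decile 31.6%, in the fifth 17.0% and in the last 9.62%. The SUPB15-only class did not fall from its first decile: of 87 regions each, 28.7% (20.3 to 39.0) of the strongest, 43.7% (33.7 to 54.1) of the second and 9.20% (4.73 to 17.1) of the weakest decile were in both Nalm6 asparaginase lists. Among sites missing from the untreated SUPB15 lists, those with a high fold in untreated Nalm6 were thus listed most often in the SUPB15 asparaginase lists.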

How the data were processed

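ATF4 ChIP-seq peak lists of 2 untreated Nalm6 and 2 untreated SUPB15 libraries were compared, grouped by the cell line, treatment and replicate number in the sample titles. BWA, MACS2, DiffBind and hg19 are named in the submitters' processing notes. No version or option of these is given in the sources used here. Each list belongs to 1 library, so peaks were called per sample. The authors' peak caller gave every peak a fold enrichment, the ratio of the fragments at its summit to the background around it. The −log10 p and −log10 q values were likewise deposited by the authors.

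Summit fragments and local background were recovered from fold and p, which solved for 100% of peaks within 0.001 in −log10 p. Above the lowest background of a list, taken as the genome background, local backgrounds were multiples of 0.02 in all lists. This pattern was seen in the values, and whether a control library was used is not stated in the sources used here. If none was used, peaks rise with copy number and open chromatin.

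Peaks sharing at least 1 bp were merged, at full length and with the 9575 peaks of lowest p per list. No filter for repeated sequence was applied, and its part in the named regions and windows was not tested. Summit heights (pseudocount 1, log2, centred on the median difference) were compared with limma 3.58.1 in R 4.3.3 (trend, Benjamini-Hochberg adjustment at 0.05) at regions in all 4 lists, which leaves out every region that 1 line did not list. Peak numbers were compared by an exact permutation test. Shares carry 95% Wilson intervals. The scripts ran in Python 3.11.15 and were tested on simulated data.

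Named were the 10 regions of each class with the highest lowest fold, 5 of each line's own class at equal length, and the 5 called regions with the largest summit difference in each direction. Regions, classes and rules were chosen with earlier results of these data known. Shares of promoters and of ATF4 motifs, and peaks at marker genes, were not run, since a genome and annotation of hg19 were not used here; for the same reason the lines were not checked against markers.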

Additional observations from a re-analysis of the deposited data

How the results depend on the processing

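Nalm6-only regions outnumbered SUPB15-only regions under every alternative run on the full lists. They did so with equally long lists too, except without SUPB15 replicate 1 or 2, where the single SUPB15 list gave 4979 and 4502 regions against 4376 and 3962. Of the 104 alternative values, 56 stayed within 1.5 times a count, within the interval of a share or, for the ratio of peak numbers, on the same side of 1, and 48 moved further; for the latter the cause was not tested beyond the fewer peaks or libraries that an alternative uses. The ratio of peak numbers was 3.63 to 7.33.

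With equally many strongest peaks the Nalm6-only and SUPB15-only classes held 3254 and 1635 regions, the shares of SUPB15 regions in Nalm6 and of Nalm6 regions in SUPB15 were 60.4% and 37.3%, and 40.5% of Nalm6-only regions were in both SUPB15 asparaginase lists. With a −log10 q of at least 5 there were 575 SUPB15-only regions and 2349 in every list, with shares of 76.2% and 10.7%. With at least 10 there were 11780 Nalm6-only, 326 SUPB15-only and 1331 common regions, with shares of 77.1% and 9.76%. Where 10 was asked for presence alone, the classes held 7331 and 211 regions, and 32.7% of the former were in both SUPB15 asparaginase lists. Summits within 200 bp gave shares of 70.3% and 13.3%. A reciprocal overlap of 50% gave 1763 SUPB15-only and 2150 common regions, with 52.1% and 8.83%. Without chromosomes 1 and 8 the shares were 81.6% and 13.8%.

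Leaving out 1 library at a time gave 21759 to 28984 Nalm6-only regions, 940 to 3656 SUPB15-only regions, 4027 to 6088 common regions, shares of 57.8 to 81.3% and 11.1 to 21.9%, and 15.3 to 24.4% of Nalm6-only regions in both SUPB15 asparaginase lists. Leaving out libraries at equal length, chosen after the data had been seen, gave 1788 to 4979 SUPB15-only regions. A class that asks for 1 library of a line in place of both is larger by construction.

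For summit heights, 3247 and 134 regions were called towards Nalm6 and SUPB15 without centring, 314 and 314 with a −log10 q of at least 10, and 574 to 889 towards Nalm6 without 1 library. With the replicate number as a replicate block the counts were 672 and 951, and the ratio of peak numbers stayed at 3.74 (exact permutation test within replicate number, p = 0.5, the smallest possible). Deviations of same-numbered libraries had a correlation of -0.10 over regions, so the numbers are not taken to pair the libraries. The background limits what can be listed: at genome background the lowest listed summit was 3.59 to 4.30 times that background, and a region below that cannot be told from one without ATF4.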

Other observations

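Some 1 Mb windows held many regions of 1 line, and only the fullest windows of each class are described. The fullest windows of the regions in every list held 9 to 10 of them. Regions of each class were counted in the lists of equal length and peaks in the full lists, with no test. The window of chromosome 8 from 83 to 84 Mb held 23 SUPB15-only regions, and neither untreated Nalm6 list had any peak in it. The SUPB15 lists had 40 and 92 peaks there, so the replicates differed by more than 2-fold. The median local background of these peaks was 1.35 and 1.31 times the genome background.

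The window of chromosome 4 from 49 to 50 Mb held 24 SUPB15-only regions, with 26 and 33 SUPB15 peaks and 9 and 5 Nalm6 peaks. On chromosome 16 from 33 to 34 Mb there were 13, with 20 and 19 SUPB15 peaks against 10 and 8 in Nalm6. Chromosome 10 from 42 to 43 Mb also held 13, beside 8 regions in every list. Chromosome Y from 13 to 14 Mb held 16. Nalm6 peaks of the chromosome 10 window had a median local background 4.55 and 5.21 times the genome background. For SUPB15 peaks it was 3.55 and 3.92 times. In the chromosome Y window the Nalm6 libraries had 4.37 and 4.93 times, and the SUPB15 libraries 2.28 and 2.70. On chromosomes 4 and 16 these medians were lower, 1.08 to 1.13 for Nalm6 peaks and 1.37 to 1.81 for SUPB15 peaks. The part of repeated sequence in these windows was not tested.

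The fullest Nalm6-only window was chromosome 1 from 1 to 2 Mb with 17 regions and no SUPB15-only region. The Nalm6 lists had 59 and 60 peaks there and the SUPB15 lists 9 and 9. On chromosome 16 from 30 to 31 Mb there were 15 Nalm6-only regions beside 9 in every list, and from 2 to 3 Mb of that chromosome 14 beside 9. Near the start of chromosome 16, from 0 to 1 Mb, 14 Nalm6-only regions lay where the Nalm6 lists had 52 and 65 peaks and the SUPB15 lists 4 and 2. Chromosome 6 from 26 to 27 Mb held all classes together, with 10 regions in every list, 5 Nalm6-only and 3 SUPB15-only.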
